A study of Lactuca sativa with 53 samples.

Results

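The transcriptome of the lettuce cultivar PI284702 was compared after 4 h at 4 °C with its state at 0 h, when plants stood at 20 °C. The comparison rests on 5 of the 53 RNA-seq libraries of the series, 3 from cold plants and only 2 from warm plants. All 23443 of 23933 listed genes with at least 0.5 reads per 1000000 counted reads (CPM) in at least 2 libraries of the cold table were tested. Plants were 18 days old, aerial tissue was harvested, and by the study's methods the cold plants also stood under weaker light than during growth. The 4 h harvest also fell at another clock time than the 0 h harvest, so cold, light and time of day cannot be told apart. The rest of the series holds PI284702 at 24 h and 7 d of cold, the cultivar UC96US23 at 0 h, 4 h, 24 h and 7 d with 3 libraries each, and the cultivar Salinas at 0 h and under drought, heat (34 °C) or salt (250 mM NaCl) for 5 h, 24 h or 48 h. In the sources used here, the gene IDs are paired with names only for the AP2/ERF transcription factors, so the labelled tissue could not be checked against leaf markers.

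AP2/ERF proteins are plant transcription factors that share a DNA-binding domain, and they fall into the DREB, ERF, AP2 and RAV subfamilies and the Soloist genes. In Arabidopsis, the DREB1 genes, also called CBF genes, are switched on within hours of a drop in temperature. Their proteins bind a short element in the promoters of cold-regulated genes, which encode protective proteins and enzymes of sugar and lipid metabolism. The 14 lettuce genes of this type are named LsCBF and belong to DREB subgroup III.

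Of the genes tested, 799 were higher after 4 h of cold (3.41% of genes) and 165 were lower (0.704%), with calls made by limma at a Benjamini-Hochberg adjusted p up to 0.01 and a log2 fold change of 1 or more in size. A fit of only the 5 libraries compared, with fewer samples behind the spread, called 519 and 55, and a pseudocount of 2 called 552 and 68. With libraries centred on their medians the numbers were 719 and 231, and edgeR on the recovered reads called 831 and 194. At an unadjusted p under 0.05 in limma, without a threshold on size, 3679 genes were higher and 3506 lower. The split between rises and falls thus depended on the thresholds and the scaling. The rises were also the larger changes. The median log2 fold change of the called genes was 1.46 for the rises and −1.19 for the falls, and 49 rises but 1 fall reached a size of 3. The cold and warm libraries did not overlap for 798 of the 799 higher genes and for all 165 lower genes. Of all genes tested, 23.7% and 26% did not overlap in these directions. The calls were made on these same libraries, which favours separation, so this is no further evidence for them. The median log2 fold change over all genes tested was −0.01. In bulk RNA, a change in the share of cells that express a gene and a change in its RNA per cell cannot be told apart.

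The genes called higher took 3.40%, 3.47% and 3.71% of the reads of the 3 cold libraries, against 1.13% in each of the 2 warm libraries. The genes called lower took 0.258%, 0.243% and 0.234% of the reads in cold, against 0.556% and 0.594% in warm. Calls depended on the level of a gene. Among the 3986 genes under 1 CPM on average, 0.728% were called higher, against 4.13% of the 8036 genes at 1 to 10 CPM and 3.96% of the 9833 genes at 10 to 100 CPM. By linkage group, the share of tested genes called higher ran between 2.46% on linkage group 5 and 3.98% on linkage group 3.

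**Figure D1:**
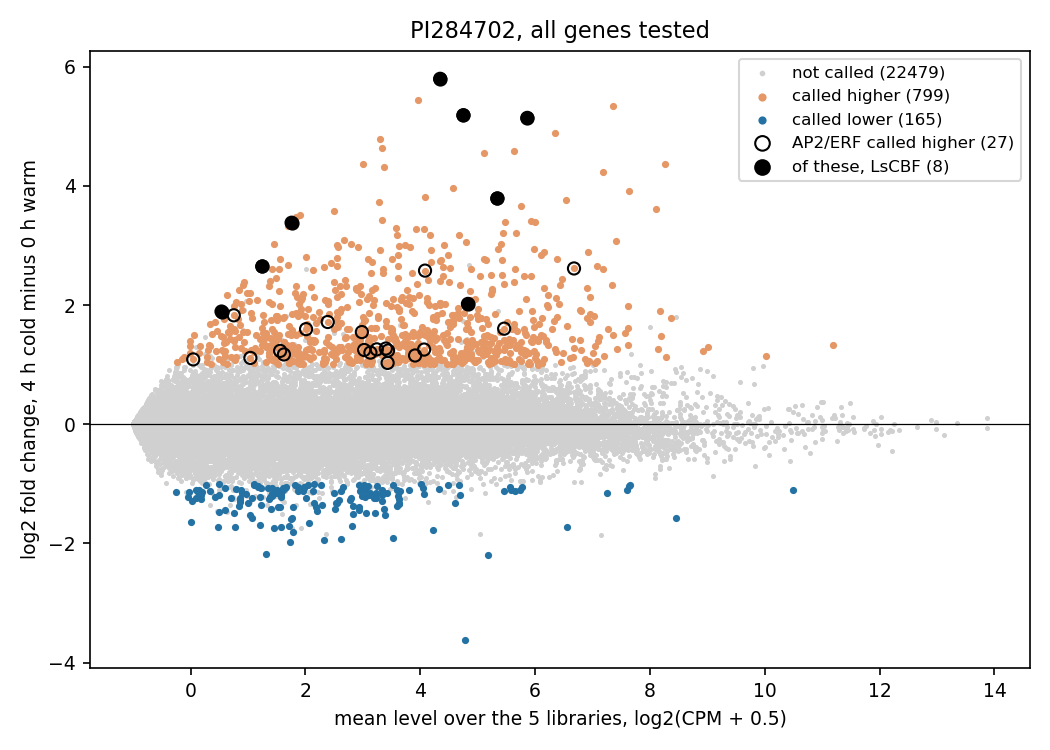
The log2 fold change of each of the 23443 genes tested (4 h of cold minus 0 h, vertical axis) is plotted against its mean level over the 5 libraries (log2(CPM + 0.5), horizontal axis). Orange and blue points are the 799 genes called higher and the 165 called lower, and black circles are the 27 called AP2/ERF genes, of which the 8 filled ones are LsCBF genes. The LsCBF gene at the top, LsERF063, has the largest fitted change on this scale, at 5.80.

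Of the 224 AP2/ERF genes of lettuce, 143 were listed in the table and 140 passed the filter. In cold, 27 of the 140 (19.3%) were called higher, against 3.41% of all genes. For lower calls the count was 0, against 0.704% of all genes, a share that would place few calls among 140 genes. At an unadjusted p under 0.05 in limma, 53 of the 140 were higher and 9 lower, against 3679 and 3506 of all 23443 genes tested. By edgeR on the recovered reads, 29 were called higher and 0 lower. The median log2 fold change was 0.23 over the family. The libraries did not overlap for any of the 27, which were called on these same libraries. In the higher direction they did not overlap for 63 of the 140 family genes tested, against 23.7% of all genes tested. Of these 27 calls, 15 held in each of the 12 alternative analyses and 12 were lost in 1 or more, and the fit of only the 5 libraries called 16 genes of the family higher.

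The DREB subfamily held most of the calls. In it, 16 of 43 tested genes were higher, against 10 of 72 in the ERF subfamily and 1 of 25 among the AP2, RAV and Soloist genes. Over the 12 alternatives the DREB count ran between 12 and 17 and the ERF count between 3 and 12. The ERF count was 3 in the fit of only the groups compared, and 6 both with a pseudocount of 2 and without warm replicate 2. The median log2 fold change was 0.49 for DREB, 0.13 for ERF and 0.19 for the AP2, RAV and Soloist genes. Within DREB, 12 of 25 genes of subgroup III were higher, with 3 of 7 in subgroup I, 1 of 3 in subgroup IV and 0 of 8 in subgroup II, where edgeR called none either and 1 gene was higher at an unadjusted p under 0.05 in limma. The LsCBF genes made up 8 of the 12 in subgroup III, and 4 of its other 15 tested genes were also called. No gene of subgroups V, VII or X or of the 21 tested AP2 genes was called by limma, and edgeR called 1 gene of subgroup V higher and none of the others. At an unadjusted p under 0.05 in limma, 2 of 6 genes of subgroup V were higher and 1 lower, and 1 of 7 of subgroup VII was higher. Of subgroup X, 2 of 6 were lower, and of the AP2 genes 7 of 21 were higher and 1 lower. Of all 23443 genes tested, 3679 were higher and 3506 lower at that p, so counts this small are not read as results about these subgroups.

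**Figure D2:**
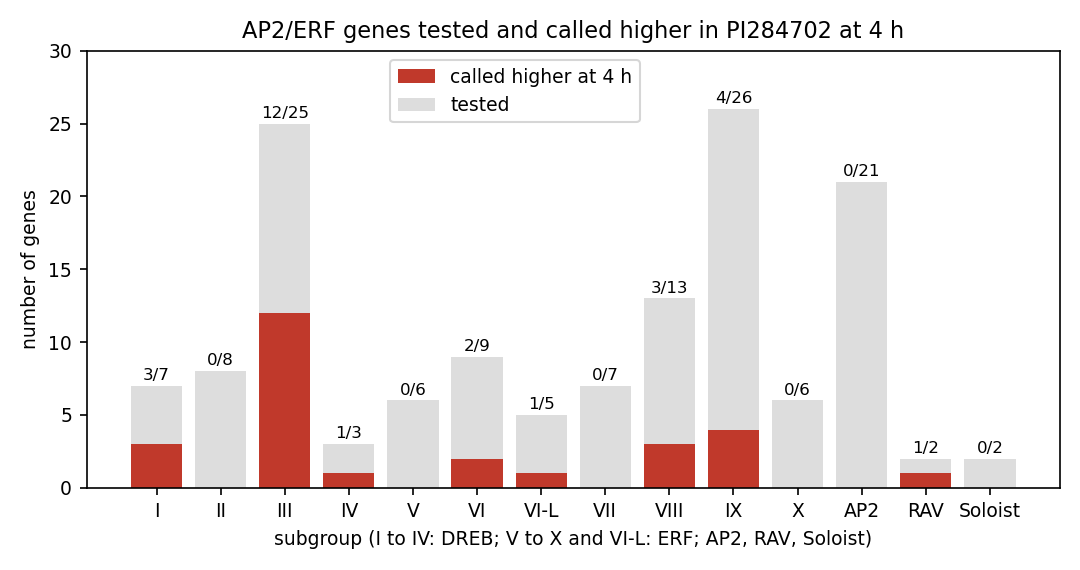
Number of AP2/ERF genes tested (grey bars) and called higher in PI284702 after 4 h of cold (red bars) in each subgroup, with called and tested genes written above the bars. Subgroup III stands out with 12 of 25, while the similarly large subgroups IX and AP2 have 4 of 26 and 0 of 21.

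The calls by gene structure and duplication are given as counts with no test. Of the tested family genes with a single exon, 23 of 91 were higher, against 4 of 49 with more exons, and 6 of the 23 are LsCBF genes. Of the genes that the study lists as tandem duplicates, 10 of 16 were higher, against 17 of 124 others, and 7 of the 10 are LsCBF genes. In 16 of 20 tested tandem pairs both copies were called and in the other 4 neither was. Most of these pairs come from 1 cluster of LsCBF genes, so the pairs are not independent. In the 16 tested segmental pairs, both copies were called in 6, one in 4 and neither in 6.

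The LsCBF genes showed the largest changes in the family. Of the 14 genes, 11 were listed, 10 were tested and 8 were called higher, with a median log2 fold change of 3.01 over the 10. It was 3.22 with LsERF064, which had no read in warm plants, set at its lower bound. Together the 10 genes reached 277, 256 and 326 CPM in the cold libraries, against 22.4 and 13.3 CPM in the warm libraries. The called genes lie on linkage group 9 of the lettuce genome version 8. Of these, 7 sit in a cluster of 10 LsCBF genes that spans 995 kb, and LsERF055 lies apart from it. Neighbouring copies are alike in sequence, and how reads that match several copies were counted is not given in the sources used here, so the values of single copies are less certain than their sum.

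LsERF063 (LsCBF10; linkage group 9, 63099989 to 63100651) had 28.7, 27.9 and 42.4 CPM in the cold libraries, against 0.203 and 0 CPM in the warm libraries. In warm plants it was close to silent, and no cold library came near a warm one. Its log2 fold change was 5.80 ± 0.29 (SE; limma, adjusted p = 2.30e-12), the largest of all genes tested on the log2(CPM + 0.5) scale. Since only 4 reads stood behind the warm level, the size depends on the scale, and edgeR gave 8.49.

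LsERF062 (LsCBF11; 63158427 to 63159059) was the LsCBF gene with the highest level in cold. It had 96.9, 84.2 and 103 CPM in the cold libraries, against 2.28 and 2.11 CPM in the warm libraries. Here 103 reads stood behind the warm level, and the log2 fold change was 5.14 ± 0.16 (SE; limma, adjusted p = 1.92e-15), ranked 5 of all genes. LsERF061 (LsCBF12; 63227251 to 63227994) ranked 4, with 42.1, 34.7 and 54.0 CPM in cold against 0.861 and 0.547 CPM in warm. Its log2 fold change was 5.18 ± 0.28 (SE; limma, adjusted p = 6.58e-12). These ranks hold on the log2(CPM + 0.5) scale. With a pseudocount of 2 the change of Lsat_1_v5_gn_3_15861.1 (5.06) exceeded those of LsERF062 (4.52), LsERF061 (4.06) and LsERF063 (4.04), and in edgeR that of LsERF064 (9.72) exceeded that of LsERF063 (8.49).

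LsERF060 (LsCBF7; 62769828 to 62770481) is the copy of the cluster whose best match in Arabidopsis is CBF2 rather than CBF4. It had 65.1, 60.1 and 65.5 CPM in cold, against 7.497 and 2.187 CPM in warm. The cold libraries lay close together, whereas the 2 warm libraries differed by more than 3 times, and the log2 fold change was 3.79 ± 0.31 (SE; limma, adjusted p = 9.08e-09).

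The other called copies of the cluster were at lower levels. LsERF064 (LsCBF9; 63083658 to 63084320) had 4.48, 3.70 and 6.26 CPM in cold and no read in either warm library, which puts it at least 74.6-fold higher in cold, taking 3 reads over the warm group as the floor. LsERF059 (LsCBF5; 62497515 to 62498183) had 2.68, 2.48 and 4.10 CPM in cold, against 0.0507 and 0.0729 CPM in warm. With 3 warm reads in all, its pooled ratio was 47.5, with an exact 95% interval of 16.0 to 232 that covers counting error only. The same locus ID also holds LsERF058 (LsCBF6), which was not analysed here, and reads of that copy may be included. LsERF065 (LsCBF8; 63051933 to 63052634) had 1.302, 1.373 and 1.992 CPM in cold, against 0.101 and 0 CPM in warm, a pooled ratio of 35.8 (9.64 to 300) on 2 warm reads. It was called with an adjusted p of 1.54e-06 in limma, but with a pseudocount of 2 its log2 fold change was 0.79 and it was not called.

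LsERF055 (LsCBF14; 187031234 to 187031878), outside the cluster, was the LsCBF gene with the highest level in warm plants. It had 35.2, 39.8 and 45.8 CPM in cold, against 10.8 and 8.31 CPM in warm, and a log2 fold change of 2.02 ± 0.18 (SE; limma, adjusted p = 3.57e-08). Its rise was therefore smaller than that of the cluster's abundant copies and started from a higher level.

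The 2 tested LsCBF genes that were not called were at very low levels. LsERF028 (LsCBF1), on linkage group 2, had 0.383, 0.634 and 0.569 CPM in cold, against 0.0507 and 0.0365 CPM in warm, with an adjusted p of 0.0113 in limma. Its libraries did not overlap, and its log2 fold change was 0.91 with the pseudocount of 0.5, so that it was not called. The 32 reads in cold and 2 in warm gave a pooled ratio of 12.05 (3.07 to 104), and the log2 fold change depends on the pseudocount, with 2.11 at a pseudocount of 0.1 and 3.45 in edgeR (adjusted p = 0.0358), where it was not called either. LsERF056 (LsCBF3) had 0.459, 1.00 and 1.82 CPM in cold, against 0.557 and 0.0729 CPM in warm, where 1 warm library exceeded a cold one (limma, adjusted p = 0.110). LsERF057 (LsCBF4) was listed but did not pass the filter, and its 34 reads in cold and 3 in warm gave a pooled ratio of 8.54 (2.69 to 43.4).

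**Figure D3:**
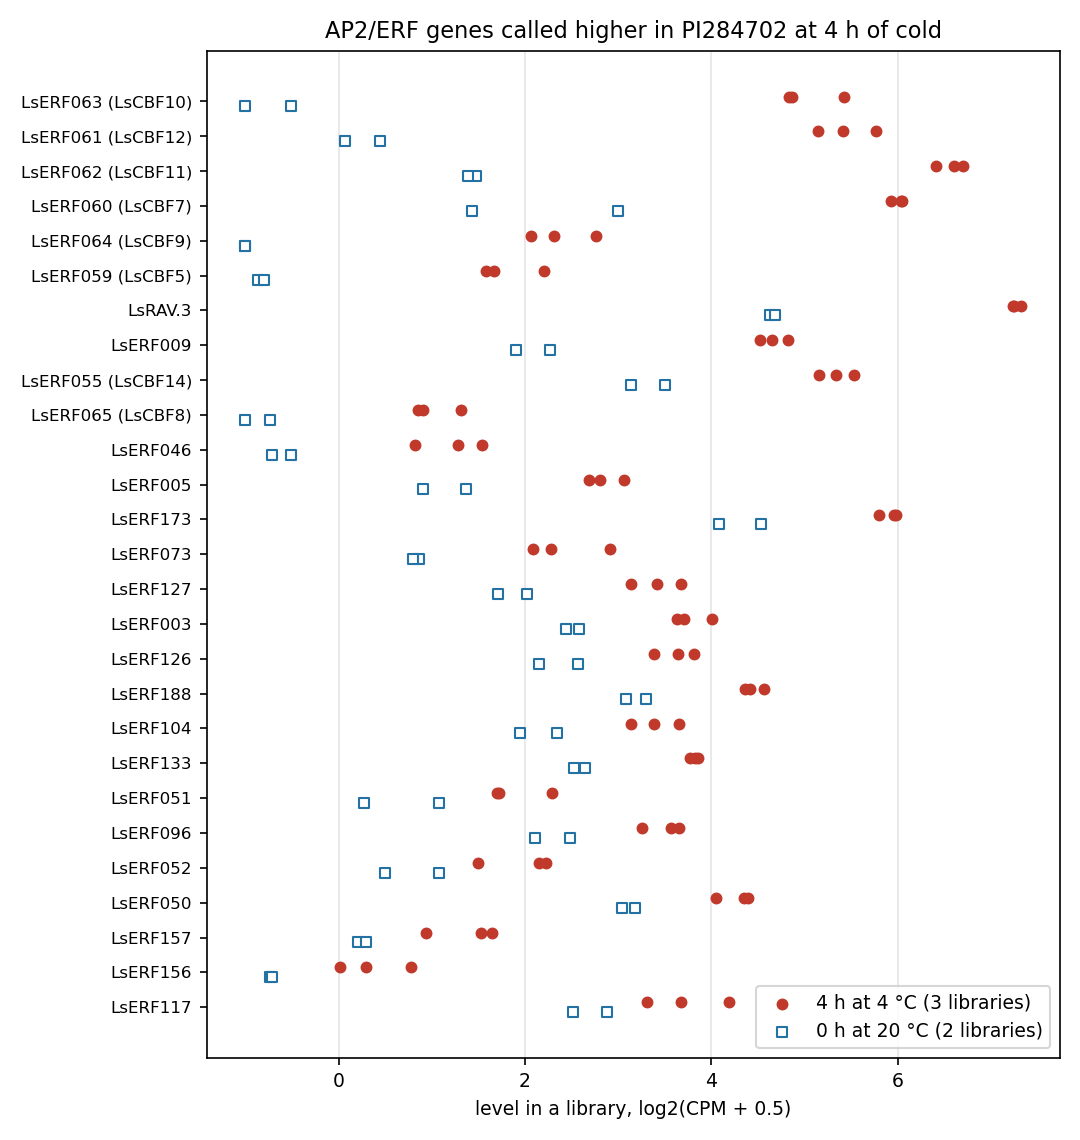
Level in each library, as log2(CPM + 0.5), of the 27 AP2/ERF genes called higher in PI284702, ordered by fold change. Red dots are the 3 libraries after 4 h at 4 °C and open blue squares the 2 libraries of 0 h at 20 °C. In every row the red dots lie to the right of both squares, a separation that choosing genes by their calls favours. The widest gaps are in LsERF063, LsERF061 and LsERF062.

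DREB genes outside the LsCBF group were also called. LsERF009, of subgroup I, had 24.6, 22.4 and 27.8 CPM in cold, against 4.31 and 3.24 CPM in warm, and a log2 fold change of 2.58 ± 0.20 (SE; limma, adjusted p = 2.46e-09). LsERF005, of the same subgroup, had 7.85, 5.91 and 6.49 CPM in cold, against 1.37 and 2.08 CPM in warm (log2 fold change 1.72; limma, adjusted p = 0.000128). Both were called in each of the 12 alternatives. LsERF073, whose best match in Arabidopsis is of the DREB2 type, which is known for responses to drought and heat, had 4.36, 3.75 and 7.00 CPM in cold, against 1.32 and 1.24 CPM in warm (log2 fold change 1.60; limma, adjusted p = 1.26e-05). It lost its call when the fit held only the 2 groups compared. LsERF046, of subgroup III, had 2.41, 1.27 and 1.94 CPM in cold, against 0.203 and 0.109 CPM in warm, where 7 reads stood behind the level (log2 fold change 1.83; limma, adjusted p = 0.000148), and lost its call in that fit and with a pseudocount of 2. LsERF004, of subgroup I, had 7.96, 6.02 and 11.9 CPM in cold, against 6.59 and 4.81 CPM in warm, and was not called, with overlapping libraries (limma, adjusted p = 0.210).

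LsRAV.3 was the called AP2/ERF gene with the highest level in cold. RAV proteins carry a B3 domain beside the AP2 domain, and its best match in Arabidopsis, RAV1, is known as a regulator of growth and of leaf ageing. It had 159, 150 and 151 CPM in cold, against 24.2 and 25.1 CPM in warm. Both groups were tight, and the log2 fold change was 2.61 ± 0.12 (SE; limma, adjusted p = 4.44e-13).

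The 10 called ERF genes rose less, with log2 fold changes of 1.03 to 1.60. By subgroup, 2 belonged to VI, 1 to VI-L, 3 to VIII and 4 to IX. Among those outside the naming rule, named here after their values were seen, LsERF173 showed the largest rise, with 62.4, 55.0 and 61.5 CPM in cold, against 22.6 and 16.4 CPM in warm (log2 fold change 1.60; limma, adjusted p = 1.23e-07). Its best match in Arabidopsis is ERF105, known for its rise in cold. LsERF116, a subgroup VIII gene that matches the repressor ERF4, had 0.306, 1.06 and 1.82 CPM in cold, against 0.152 and 0.109 CPM in warm. Its cold libraries spread over almost 6 times, and it was not called (log2 fold change 1.18; limma, adjusted p = 0.0128), but without cold replicate 1 it was (1.59; adjusted p = 0.000500). LsERF085, which matches SHINE1, a regulator of cuticle wax, had 2.95, 3.06 and 1.76 CPM in cold, against 2.84 and 2.70 CPM in warm (limma, adjusted p = 0.835).

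Some family genes were lower in cold without reaching a change of 1, and the 3 given here were chosen after their values were seen. LsERF010, a DREB gene of subgroup I that matches RAP2.4 of Arabidopsis, had 67.0, 61.8 and 62.4 CPM in cold, against 115 and 106 CPM in warm (log2 fold change −0.79; limma, adjusted p = 3.3e-05). LsERF001, its relative in the same subgroup, had 11.5, 11.99 and 13.4 CPM in cold, against 20.4 and 21.2 CPM in warm (−0.74; limma, adjusted p = 0.000178). LsERF171, which matches ERF5, had 17.6, 18.7 and 15.4 CPM in cold, against 35.7 and 27.2 CPM in warm (−0.84; limma, adjusted p = 0.00100). In none of the 3 did the groups overlap, which held for 26% of all genes tested in the lower direction. Only LsERF171 was called lower in an alternative, without warm replicate 2 (−1.03; limma, adjusted p = 0.00197).

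AP2 genes, known in Arabidopsis for flower and seed development, showed smaller changes. LsAP2.13, which matches the floral regulator APETALA2, had 33.3, 38.6 and 33.9 CPM in cold, against 18.8 and 17.4 CPM in warm. Its libraries did not overlap, but its log2 fold change was 0.94, short of 1 (limma, adjusted p = 0.000142). LsAP2.14 had 7.05, 8.03 and 5.75 CPM in cold, against 12.5 and 10.4 CPM in warm (log2 fold change −0.69; limma, adjusted p = 0.0131). LsAP2.05 had 0.766, 0.792 and 1.88 CPM in cold, against 0.659 and 1.13 CPM in warm, and its libraries overlapped (limma, adjusted p = 0.698).

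Outside the AP2/ERF family, the 2 gene IDs with the largest rise were Lsat_1_v5_gn_0_29801.1 and Lsat_1_v5_gn_3_15861.1. Lsat_1_v5_gn_3_15861.1 had 265, 253 and 286 CPM in cold, against 5.83 and 6.42 CPM in warm, a log2 fold change of 5.34 ± 0.23 (SE; limma, adjusted p = 1.79e-13). Lsat_1_v5_gn_0_29801.1 had 24.4, 20.5 and 30.8 CPM in cold, against 0.101 and 0.0729 CPM in warm, with 2 reads in each warm library (log2 fold change 5.43; limma, adjusted p = 1.14e-10). The largest fall was that of Lsat_1_v5_gn_7_29740.2, with 0.957, 23.3 and 1.99 CPM in cold, against 65.5 and 44.0 CPM in warm. One cold library held most of its cold reads, so the fall of 3.62 on the log2 scale came with an SE of 0.86 (limma, adjusted p = 0.00440). It was not called by edgeR (adjusted p = 0.0203), nor in the fit of only the groups compared (limma, adjusted p = 0.117). In limma it also lost its call without cold replicate 1 (0.0290), cold replicate 3 (0.0248), warm replicate 1 (0.0634) or warm replicate 2 (0.0237). Lsat_1_v5_gn_5_99920.1 had 17.7, 14.9 and 11.0 CPM in cold, against 58.3 and 76.3 CPM in warm (log2 fold change −2.19; limma, adjusted p = 2.97e-07).

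UC96US23 was sampled at the same times and shares no library with PI284702. PI284702 and UC96US23 stood in one fit, however, and shared its estimate of the spread, so their calls are not fully independent. By the study's methods, reads were aligned to a reference genome built from Salinas. In the 0 h and 4 h libraries, 1006 to 1224 listed genes had no read in UC96US23, against 675 to 805 in PI284702. Whether reads aligned equally well in both was not tested. In UC96US23, 1009 genes were called higher (4.3%) and 546 lower (2.33%) at 4 h, with 329 lower without its cold replicate 2. The lists shared 573 higher genes, 71.7% of those of PI284702 and 56.8% of those of UC96US23. They shared 86 lower genes, 52.1% and 15.8% of the lists. Separate fits of each cultivar's 0 h and 4 h libraries shared 264 higher genes, of 519 in PI284702 and 470 in UC96US23. They shared 23 lower genes, of 55 and 100. With a pseudocount of 2 the shared lower genes were 43. Of the 799 higher genes of PI284702, 783 had the same sign in UC96US23, as had 145 of the 165 lower genes, and no gene was called in opposite directions. Across the genes tested, which are not independent replicates, Pearson's r of both changes was 0.71.

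The difference itself was tested as an interaction. The change was more positive in PI284702 for 23 genes (0.0981%) and more negative for 9 (0.0384%), and 17 of these 32 genes were among those called in PI284702. With libraries centred on their medians the numbers were 19 and 12, and edgeR gave 4 and 7. Leaving out any of the 5 libraries of PI284702 gave 8 to 13 and 2 to 6, the fewest without warm replicate 2 for the first number and without warm replicate 1 for the second, and leaving out a warm library of UC96US23 gave 11 to 17 and 4 to 5. No AP2/ERF gene was called for this difference by limma or edgeR, whereas 29 had an unadjusted p under 0.05 in limma, 13 of them more positive in PI284702 and 16 more negative. The share of all genes at that p is not given here, so the 29 are not read as an excess. Over the family, r was 0.89, and 23 of the 27 genes called in PI284702 were also called in UC96US23, where 35 were higher and 4 lower.

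Among the LsCBF genes, LsERF063 rose by 5.80 in PI284702 and 5.31 in UC96US23 on the log2 scale, a difference of 0.49 (95% interval −0.33 to 1.2998). For LsERF062 the difference was 0.18 (−0.27 to 0.64). For LsERF060 it was 0.95 (0.08 to 1.83; limma, adjusted p = 0.269), and for LsERF065 0.93 (0.31 to 1.54; adjusted p = 0.148). LsERF065 was called in PI284702 and not in UC96US23, where its log2 fold change was 0.96. LsERF028 had the opposite tendency, at −0.69 (−1.38 to 0.0004; adjusted p = 0.304). Of the 10 tested LsCBF genes, 4 had an unadjusted p under 0.05 for the difference in limma, all 4 more positive in PI284702. Without the share of all genes at that p, no excess is read from these 4. For LsRAV.3 the difference was 0.46 (0.13 to 0.79; adjusted p = 0.174). None of these differences was called, and none of the intervals shows that the cultivars responded alike.

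**Figure D4:**
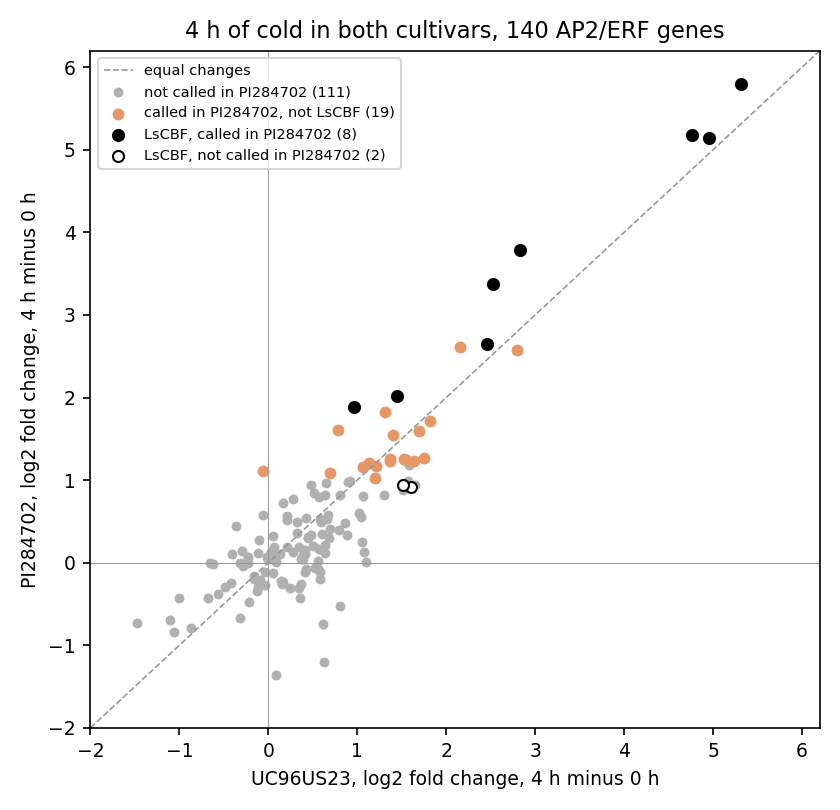
The log2 fold change after 4 h of cold (4 h minus 0 h) of the 140 tested AP2/ERF genes in PI284702 (vertical axis) and UC96US23 (horizontal axis). The dashed line marks equal changes, filled black points the 8 LsCBF genes called in PI284702 and open points the 2 that were not. The 8 filled points lie above the line and the 2 open ones below it, an order that choosing the 8 by their calls in PI284702 favours, and none of the differences was called.

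By 24 h of cold, 801 genes were higher than at 4 h (3.42%) and 807 were lower (3.44%), a comparison that shares its 4 h libraries with the one above. Of the 10 tested LsCBF genes, 6 were called lower at 24 h than at 4 h, and the change was negative for all 10. The mean level of LsERF063 was 0.101 CPM at 0 h, 33.0 at 4 h, 6.50 at 24 h and 1.85 at 7 d. Its change between 24 h and 4 h was −2.34 on the log2 scale (limma, adjusted p = 3.94e-07). LsERF062 had 2.20, 94.9, 44.9 and 15.6 CPM at these times (−1.08 at 24 h against 4 h; limma, adjusted p = 5.40e-06). LsERF061 had 0.704, 43.6, 22.7 and 2.28 CPM, and its change of −0.96 between 24 h and 4 h was just under the threshold (limma, adjusted p = 0.00413). LsERF060 had 4.84, 63.6, 20.7 and 20.3 CPM (−1.65; limma, adjusted p = 7.32e-05), so its mean at 7 d stayed near that at 24 h.

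LsERF055 followed another course. Its mean level was 9.58 CPM at 0 h, 40.2 at 4 h, 19.3 at 24 h and 51.1 at 7 d, so it was lower at 24 h than at 4 h (−1.06; limma, adjusted p = 2.30e-05) and highest at 7 d. In UC96US23 it had 3.04, 9.19, 4.10 and 9.12 CPM at these times, a lower mean than in PI284702 at each time, a difference that was not tested. LsAP2.13 rose further after 4 h, with 18.1, 35.2, 163 and 61.0 CPM (2.18 at 24 h against 4 h; limma, adjusted p = 9.76e-11). LsRAV.3 had 24.6, 153, 87.2 and 50.4 CPM (−0.81; limma, adjusted p = 3.01e-06). LsERF009 had 3.78, 24.9, 8.95 and 3.98 CPM, so that its mean at 7 d lay near that of warm plants (−1.44 at 24 h against 4 h; limma, adjusted p = 1.14e-06).

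**Figure D5:**
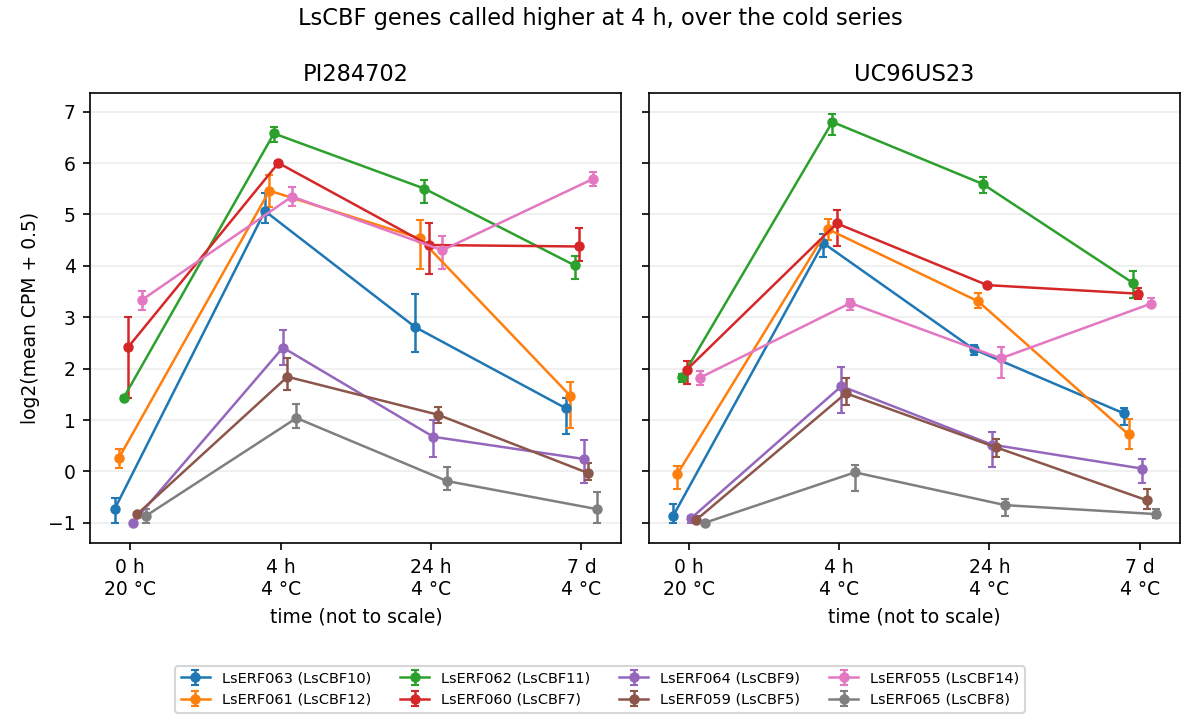
Mean level, as log2(mean CPM + 0.5), of the 8 LsCBF genes called higher at 4 h in PI284702, in PI284702 (left) and UC96US23 (right), at 0 h and after 4 h, 24 h and 7 d of cold. Bars span the lowest to the highest library of a group (3 libraries, 2 for PI284702 at 0 h). In PI284702 all 8 means peak at 4 h except that of LsERF055, which is highest at 7 d.

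In Salinas, harvests at 5 h of drought, heat and salt also fell at another clock time than the 0 h controls. By the study's methods, the cold data were obtained from another public dataset, and the Salinas treatments stood under stronger light than the cold plants. Cultivar, experiment and light thus differ along with the treatment. Genes called at 5 h in the same direction in all 3 treatments numbered 6 higher (0.0258%) and 9 lower (0.0387%). Of these, 6 higher and 6 lower genes were tested in PI284702, and none was called there in the same direction. With so few genes, hardly any overlap could occur, so no conclusion is drawn from its absence. The 9 lower genes became 3 without control replicate 3, and 5 without control replicate 1 or without drought replicate 2 or 3. Of the 799 higher genes of PI284702, 773 were tested in Salinas. There, 200 (25.9%) were called higher in at least 1 treatment, against 8.15% of all genes. By treatment, 179 were higher in salt (background 4.67%), 30 in heat (3.67%) and 16 in drought (0.542%). The other 573 were not called higher in any of them. Of 157 lower genes tested there, 5 (3.18%) were called lower in at least 1 treatment, against 3.92% of all genes.

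Of the 27 called AP2/ERF genes, 23 were tested in Salinas. Of these, 6 were called higher at 5 h in salt, against 24 of all 133 tested family genes, and 3 in heat, against 5 of 133. In drought none of the 23 was called by limma, the only tool run on Salinas, against 6 of 133 called higher, and at an unadjusted p under 0.05 there were 6 higher and 6 lower. LsERF009 was higher in salt (log2 fold change 3.32) and heat (1.32), as was LsERF073 (1.28 in salt and 1.08 in heat). LsERF062 was called in heat alone, at 2.052. LsERF060 (−0.44 in salt) and LsERF061 (−0.05 in salt) were called in none, and LsERF055 was lower in salt, at −1.26. LsERF063, LsERF064, LsERF059 and LsERF065 were not tested in Salinas.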

How the data were processed

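RNA of aerial tissue was sequenced. Per the labels' processing notes and the paper's methods, the authors aligned reads with STAR 2.5.2 and counted them per gene with featureCounts. For PI284702 and UC96US23 they deposited CPM, and each library sums to 1000000. For Salinas they deposited a signal per gene, a CPM scaled by a factor per library whose method is not given in the sources used here. All values above 0 (100%, within 0.01 of a read) were whole multiples of 1 read, and these recovered counts of the deposited tables gave depths, floors and the input of edgeR 4.0.16. The 5 libraries held 17570370 to 27429184 reads, so 1 read was 0.0365 to 0.0569 CPM. Replicates differed beyond counting noise (chi-square per gene 4.40 to 8.32; r 0.990 to 0.991). The study's methods describe biological replicates for Salinas. Whether the libraries of PI284702 and UC96US23 came from separate plants is not given in the sources used here, so their p-values measure the spread between libraries, which may be technical. Counting intervals and floors (3 reads) cover counting error only.

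Values were fitted as log2(CPM + 0.5) in R 4.3.3 by limma's linear models (version 3.58.1, moderated with a trend), with all 23 libraries of both cultivars in one fit (15 residual degrees of freedom) and Benjamini-Hochberg adjustment over all genes tested. The lone pair of warm libraries thus shared the spread of the other groups. An exact 2-sided rank test of 3 against 2 libraries cannot go below p = 0.2. Fold changes on this scale understate changes of low genes. Salinas was fitted in the same way over 30 libraries. The filter and thresholds are those of the study's methods. The fit was tested on simulated data.

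AP2/ERF names, subgroups, positions, duplicates and Arabidopsis matches are the study's lists. LsERF060 was matched to the only listed ID of its locus, which differs from the family list in the transcript suffix. Named are the listed LsCBF genes, the 12 called family genes with the largest rise, family genes called in the interaction (none), those named in the study's text on expression, and the 2 IDs with the largest rise and fall. The members and lists were chosen with earlier results of these data known. Lists of other pathways and of leaf and other cell type markers were not used, as the IDs were not paired with names. Alternatives were pseudocounts of 0.1 and 2, no filter, median-centred libraries, only the groups compared, the replicate number as a block, edgeR's quasi-likelihood test with TMM, and leaving out each library. Leaving out Salinas libraries was chosen after seeing the data. Python 3.11.15, pandas 2.3.3 and matplotlib 3.10.9 made the tables and figures.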

Additional observations from a re-analysis of the deposited data

Results flagged for a closer look

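The response to 4 h of cold differed between PI284702 and UC96US23, by the interaction term, in 32 genes. It was more positive in PI284702 for 23 genes and more negative for 9. Of the 32, 11 were called higher only in PI284702, 4 only in UC96US23 and 4 in both. A further 2 were called lower only in PI284702, 6 only in UC96US23, and 5 were called in neither cultivar. The 2 changes had opposite signs for 12 of the 32. None of the 32 belonged to the AP2/ERF family, in which the lowest adjusted p for the difference (limma) was 0.0419, for LsERF001, with log2 fold changes of −0.74 in PI284702 and −1.48 in UC96US23. The numbers depended on the analysis, as edgeR called 4 and 7 genes.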

How the results depend on the processing

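With only the groups compared in the fit, 519 genes were higher and 55 lower in PI284702 at 4 h, 16 AP2/ERF genes were higher, 470 genes were higher and 100 lower in UC96US23, and 4 and 0 differed between the cultivars; this fit has fewer samples. With a pseudocount of 2, 68 genes were lower in PI284702, 654 higher and 229 lower in UC96US23, 453 lower at 24 h than at 4 h, and 19 more negative in PI284702 than in UC96US23; the cause was not tested. For the difference between the cultivars, a pseudocount of 0.1 gave 12 and 5 genes, the replicate block 12 and 6, and edgeR 4 and 7. Counting a Salinas gene at 1 or more treatments gave 1894 higher and 910 lower.

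Leaving out each library gave 669 to 842 genes higher and 133 to 190 lower in PI284702 at 4 h, 23 to 29 AP2/ERF genes higher and 0 to 1 lower, 8 to 26 more positive and 2 to 9 more negative than in UC96US23, 728 to 932 higher and 677 to 1076 lower at 24 h than at 4 h, 872 to 1056 higher and 329 to 800 lower in UC96US23, and 4 to 7 higher and 3 to 11 lower in all Salinas treatments. The log2 fold change of LsAP2.05, not called, ran between −0.10 (−0.05 without warm replicate 1) and 0.44, and that of LsERF085, not called, between −0.23 and 0.10. Of the 799 higher and 165 lower genes, 395 and 27 were called in all 12 alternatives. The labels tie no replicate number to a plant or batch. The deviations of same-numbered libraries had r of 0.16 and 0.15 at 4 h and 0 h (2 pairs), 0.11, 0.18 and −0.04 at 24 h and 4 h, and −0.10, −0.15 and 0.03 at 4 h and 0 h in UC96US23. At 24 h and 0 h, r was 0.18 and 0.16 in PI284702 (2 pairs), and −0.20, −0.02 and 0.09 in UC96US23. In UC96US23 it was also 0.12, 0.05 and 0.002 at 24 h and 4 h, and 0.14, 0.09 and 0.22 at 4 h and 7 d. These values do not settle whether libraries were paired, and the main fit assumed no pairing. The replicate block gave 811 higher and 154 lower genes.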
